A study of Homo sapiens with 4 samples.

Results

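The RNA level of 10 genes of the Notch pathway was compared between LoVo cells that express MET and LoVo cells in which the MET gene was knocked out. These genes, taken by symbol from the 58825 Ensembl genes of the count files, encode the receptors NOTCH1, NOTCH2 and NOTCH3, the ligands JAG1, JAG2 and DLL1, the target genes HES1, HES4 and HEY1, and ATOH1, a transcription factor that HES1 holds back in the intestine. LoVo is a human cell line from a colon adenocarcinoma, in which the MET receptor stays uncleaved and is phosphorylated without its ligand. The 2 MET+ libraries were labelled as wild type and described as GFP controls. The 2 MET-KO libraries were labelled as a MET knock out, made with CRISPR/Cas9 in cells that also received a GFP plasmid, followed by puromycin selection and picking of single clones. Neither the number of clones nor the clone behind each library is stated. A difference between clones or cell stocks and an effect of MET loss therefore cannot be told apart. Both groups were grown in the same serum-containing medium, and the replicates were named biological replicates.

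Notch receptors are cut on contact with a ligand of a neighbouring cell, first by an ADAM protease and then by gamma-secretase, and the freed intracellular part joins the DNA-binding protein RBPJ and a MAML coactivator to switch on target genes. The HES and HEY genes are the best known of these targets and encode repressors of the basic helix-loop-helix type. In the intestine, Notch signalling through HES1 keeps progenitors in the absorptive line, and cells that escape it express ATOH1 and become secretory cells such as goblet and enteroendocrine cells.

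The 4 libraries held 8429142 to 10286552 counts, so that a gene at 0 counts could still have had 0.276 to 0.363 CPM (counts scaled to a library of 1000000), taking 3 counts as the limit and counting error only. MET itself had 2794 and 3272 counts in the MET+ libraries against 861 and 965 in the MET-KO libraries, a 3.89-fold lower level. Reads at the 3' end need not cover the edited site, so this level does not check the edit itself. The 11 colon epithelial markers summed to 9701 to 9738 CPM in MET+ and 7337 to 8321 CPM in MET-KO cells, carried largely by keratins. KRT18 alone had 50287 to 57085 counts in a library, of 79673 to 94876 for all 11. Of these 11 markers, KRT20 and CDX2 were higher and another 7 lower after the knockout, and CDX1 was at 0 throughout. Some were singled out after their values had been seen. CEACAM5 went from 392 and 487 counts to 0, VIL1 from 43 and 58 to 3 and 3, and LGALS4 from 89 and 107 to 1 and 1. KRT20 went from 0 to 27 and 28 counts, and CDX2 from 525 and 648 to 1477 and 1338. Lists of blood cell, fibroblast and endothelial markers summed to at most 21 counts in a library, with PTPRC, CD3E, COL1A2, DCN, CDH5 and KDR at 0 in all 4. The part of the epithelial markers in the results below was not tested. In such bulk libraries, fewer cells of a type and less RNA per cell cannot be told apart.

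Of the 10 genes, 8 passed the filter on low counts, and 6 of these differed between MET+ and MET-KO cells, 4 higher and 2 lower. NOTCH1, NOTCH2, JAG1 and HES4 rose by 1.56-fold to 1.66-fold in MET-KO cells, whereas HES1 fell 1.92-fold and DLL1 2.62-fold. NOTCH3 and JAG2 did not pass the threshold, and HEY1 and ATOH1 were too low to be tested. The share called has to be read against the rest of the transcriptome, in which 54.1% of 13801 tested genes were called, 27.2% higher and 26.9% lower. The median log2 fold change (log2FC, MET-KO over MET+) was 0.22 for the 8 genes and 0.01 for all tested genes. Calls rest on an adjusted p below 0.05 in the quasi-likelihood test of edgeR, adjusted over all tested genes by the Benjamini-Hochberg method. The libraries of the groups did not overlap for any of the 8 genes, as for 75.6% of all tested genes.

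**Figure D1:**
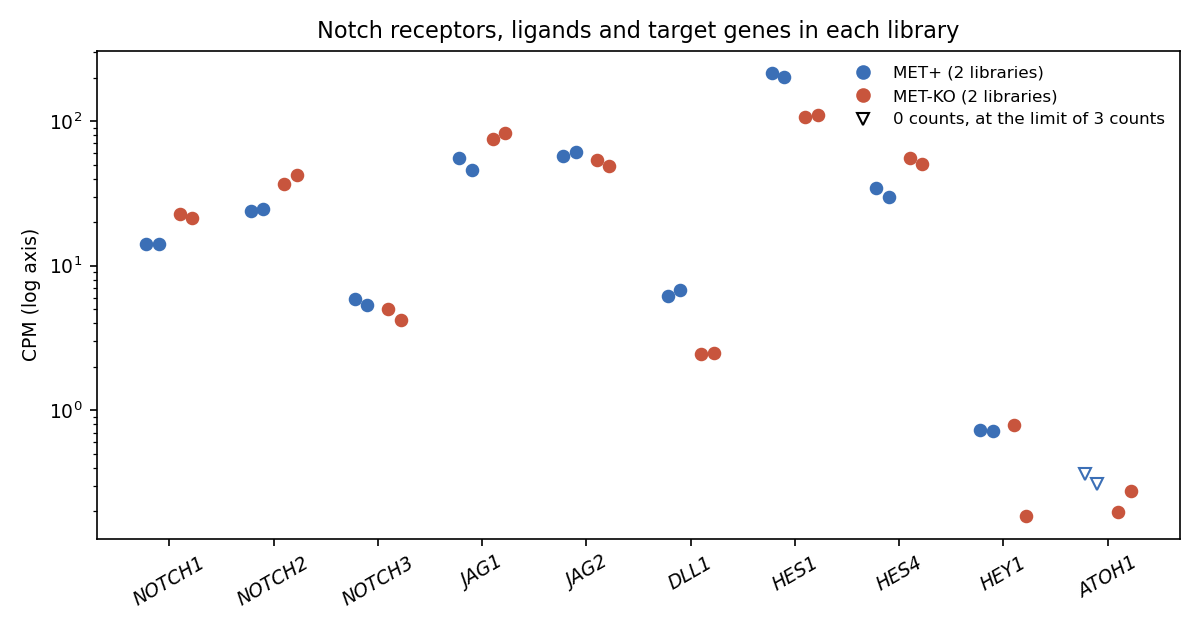
CPM on a log axis for each of the 10 genes, with 1 point for each MET+ library (blue) and each MET-KO library (red), and open triangles at the limit of 3 counts where a library had 0 counts. HES1 was the highest of the genes in every library, and HEY1 and ATOH1 stayed below 1 CPM.

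Since a 3' end library yields a single fragment near the poly(A) end of a transcript, CPM was not divided by gene length and levels of different genes were set side by side. In MET+ cells the order was HES1, JAG2, JAG1, HES4, NOTCH2, NOTCH1, DLL1, NOTCH3, HEY1 and ATOH1, and no neighbours in it overlapped between libraries. In MET-KO cells it was HES1, JAG1, HES4, JAG2, NOTCH2, NOTCH1, NOTCH3, DLL1, HEY1 and ATOH1. There the ranges of HES4 (50.6 to 55.9 CPM) and JAG2 (48.9 to 54.2 CPM) overlapped, as did those of HEY1 and ATOH1. JAG1 thus stood below JAG2 in both MET+ libraries and above it in both MET-KO libraries. DLL1 stood above NOTCH3 in the former and below it in the latter. In MET+ replicate 1 both gaps were within counting error. JAG1 had 459 counts there against 475 for JAG2, and DLL1 had 51 against 49 for NOTCH3. In MET+ replicate 2, DLL1 had 66 counts against 52 for NOTCH3, also within counting error.

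Among the receptors, NOTCH2 was the most abundant. NOTCH2 (ENSG00000134250, chromosome 1, 119911553 to 120069626 in GENCODE version 29 on GRCh38, as for all gene positions given) had 199 and 241 counts, or 24.0 and 24.7 CPM, in the MET+ libraries, and 377 and 460 counts, or 37.0 and 42.4 CPM, in the MET-KO libraries. The mean rose from 24.4 ± 0.487 to 39.7 ± 3.81 CPM (SD, n = 2 each), with a log2FC of 0.70 (standard error (SE) 0.13, edgeR adjusted p = 3.31e-05). NOTCH2NLA, a partial copy of this gene, had 0 counts in every library. A read that matches both genes cannot be assigned, so this count does not show whether the copy was expressed. NOTCH1 (ENSG00000148400, chromosome 9, 136494433 to 136545786) had 117 and 138 counts, or 14.1 and 14.2 CPM, in MET+ cells and 234 and 231 counts, or 22.9 and 21.3 CPM, in MET-KO cells. Both MET-KO values were higher, with a log2FC of 0.64 (SE 0.16, edgeR adjusted p = 0.00131). The antisense gene AL592301.1, which overlaps NOTCH1, was at 0.

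NOTCH3 (ENSG00000074181, chromosome 19, 15159038 to 15200981) was low, with 49 and 52 counts (5.92 and 5.34 CPM) in MET+ and 51 and 46 counts (5.00 and 4.24 CPM) in MET-KO cells. Its log2FC was -0.28 with a 95% interval of -0.88 to 0.31 (edgeR adjusted p = 0.434), so that neither a fall nor a small rise could be excluded at this depth. NOTCH4, the receptor best known from endothelium, had 4 and 0 counts in MET+ cells against 3 and 10 counts in MET-KO cells and was not tested. The 4 receptors together summed to 44.6 and 44.2 CPM in the MET+ libraries and to 65.2 and 68.8 CPM in the MET-KO libraries, 1.51 times the MET+ mean.

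**Figure D2:**
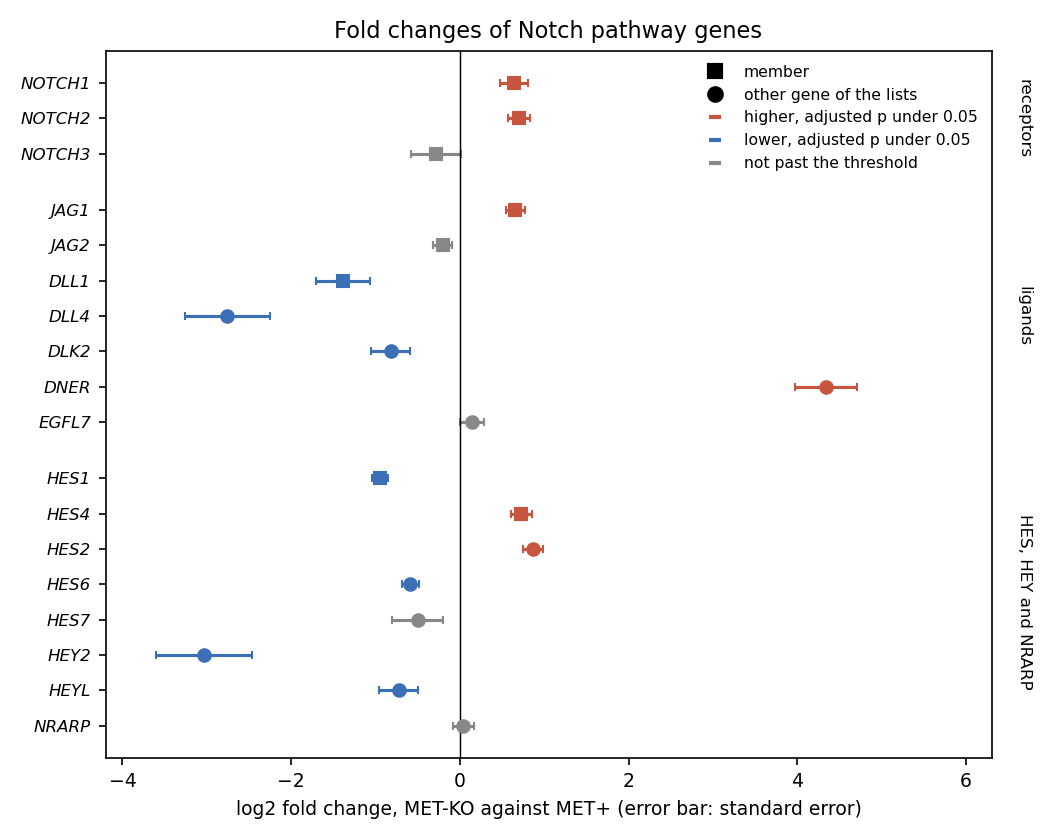
Log2FC of MET-KO against MET+ on the x axis with its standard error, for the 8 tested members (squares) and the tested genes of the lists of other ligands and of other HES and HEY factors (circles), coloured by call. NOTCH1, NOTCH2, JAG1 and HES4 lie between 0.64 and 0.73, while HES1, DLL1, DLL4 and HEY2 lie well below 0.

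Among the ligands, JAG1 rose while DLL1 and DLL4 fell, DLL1 together with its chromosomal neighbours (described with the chromosomes). JAG1 (ENSG00000101384, chromosome 20, 10637684 to 10673999), a transmembrane ligand of the Serrate type, had 459 and 444 counts, or 55.5 and 45.6 CPM, in MET+ and 768 and 904 counts, or 75.3 and 83.2 CPM, in MET-KO cells. The mean went from 50.5 ± 7.0 to 79.3 ± 5.62 CPM (SD, n = 2 each), a log2FC of 0.65 (SE 0.11, edgeR adjusted p = 8.47e-06). Its MET+ libraries lay further apart than those of NOTCH1 or NOTCH2, and its log2FC lay between 0.51 and 0.80 when single libraries were left out. JAG2 (ENSG00000184916, chromosome 14, 105140981 to 105168824), of the same type, had 475 and 597 counts, or 57.4 and 61.3 CPM, in MET+ and 553 and 531 counts, or 54.2 and 48.9 CPM, in MET-KO cells. Its log2FC of -0.20 (95% interval -0.43 to 0.02, edgeR adjusted p = 0.12) did not pass the threshold.

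DLL1 (ENSG00000198719, chromosome 6, 170282206 to 170306565), a ligand of the Delta type, had 51 and 66 counts, or 6.16 and 6.77 CPM, in MET+ and 25 and 27 counts, or 2.45 and 2.49 CPM, in MET-KO cells. Of the 10 genes it showed the largest tested change, a log2FC of -1.39 (SE 0.32, edgeR adjusted p = 0.000454), and 16.7% of all tested genes changed more in either direction. FAM120B, a protein-coding gene on the other strand whose span overlaps that of DLL1, had 83 and 102 counts in MET+ cells against 108 and 105 in MET-KO cells. Whether the counting used strand is not stated, so a share of these reads cannot be assigned. DLL4 moved the same way, from 36 and 46 counts to 2 and 12, with a log2FC of -2.75 (SE 0.51, edgeR adjusted p = 2.29e-05). DLL3, a ligand-like protein that does not activate the receptors, had 3 and 0 counts in MET+ cells against 0 in MET-KO cells.

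Non-canonical ligands went in different directions. DNER, a transmembrane protein with EGF-like repeats, had 8 and 4 counts in MET+ cells against 164 and 125 in MET-KO cells (log2FC 4.34, SE 0.37, edgeR adjusted p = 4.39e-12). DLK2, a delta-like protein without the DSL domain, had 105 and 99 counts in MET+ cells against 57 and 79 in MET-KO cells, a log2FC of -0.82 with an edgeR adjusted p of 0.00333. The DLK2 call was lost without MET-KO replicate 1 (log2FC -0.65, edgeR adjusted p = 0.0541) and in DESeq2's Wald test (adjusted p = 0.0561). EGFL7 had a log2FC of 0.14 (edgeR adjusted p = 0.431), and DLK1 was at 0 in every library. In this list of 7 other receptors and ligands, 4 were tested, 1 was higher and 2 lower. This made 75% called, against 54.1% of all tested genes.

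The targets HES1 and HES4 changed in opposite directions. HES1 (ENSG00000114315, chromosome 3, 194136145 to 194138732), the main Notch effector of the intestinal crypt, had 1783 and 1954 counts, or 215 and 201 CPM, in MET+ cells against 1091 and 1188 counts, or 107 and 109 CPM, in MET-KO cells. The mean fell from 208 ± 10.5 to 108 ± 1.71 CPM (SD, n = 2 each), with a log2FC of -0.94 (SE 0.09, edgeR adjusted p = 1.98e-10). HES4 (ENSG00000188290, chromosome 1, 998962 to 1000172), a close relative with the same kind of repressor domain, had 287 and 290 counts, or 34.7 and 29.8 CPM, in MET+ and 570 and 550 counts, or 55.9 and 50.6 CPM, in MET-KO cells. Its log2FC was 0.73 (SE 0.12, edgeR adjusted p = 5.6e-06). For both genes, the 2 libraries of each group lay close together and far from the other group. Neither gene is overlapped by another in GENCODE version 29.

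The promoters of this pair are shown because the genes changed in opposite directions and both carry TGGGAA, the core motif of RBPJ. The matches lie upstream of the RefSeq starts, that of HES4 across its start in GENCODE. Whether the motif has a part in either change was not tested. The sequences are from RefSeq on GRCh38.p14, 5' to 3' on the strand of the gene, with TGGGAA in capitals. That of HES1 (chr3:194135898-194136144, plus strand, 247 bases) and that of HES4 (chr1:1000168-1000347, minus strand, 180 bases) begin 250 bases before the RefSeq start and end before the first transcribed base in GENCODE, or at the end of a motif lying across it:
HES1: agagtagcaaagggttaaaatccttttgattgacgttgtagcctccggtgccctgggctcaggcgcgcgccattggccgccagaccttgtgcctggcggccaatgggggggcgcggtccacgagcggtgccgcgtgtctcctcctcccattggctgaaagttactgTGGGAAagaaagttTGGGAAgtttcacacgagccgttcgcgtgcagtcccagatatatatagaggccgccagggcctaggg
HES4: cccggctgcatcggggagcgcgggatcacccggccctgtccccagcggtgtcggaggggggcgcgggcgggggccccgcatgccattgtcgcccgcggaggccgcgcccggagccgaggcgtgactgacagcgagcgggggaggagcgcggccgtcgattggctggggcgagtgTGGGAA
HES1 held 2 matches, at positions -84 to -79 and -70 to -65 relative to the RefSeq start, and HES4 held 1, at -76 to -71, all on the strand of the gene. TGGGAA was searched on both strands in the 250 bases before the start, where 20.9% of 35116 promoters held it. The table held promoters for 8 of the 10 genes, and NOTCH1, NOTCH2, NOTCH3, JAG1, JAG2 and ATOH1 had no match in this window. The N-box CACNAG, a sequence that HES proteins bind, was searched in the same way, after the values had been seen. It matched 3 times in HES1, once each in NOTCH3 and ATOH1 and not in HES4, against 32.0% of all promoters with a match. These matches describe the letters of the sequence only.

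The last 2 of the 10 genes were at the edge of detection. HEY1 (ENSG00000164683, chromosome 8, 79764010 to 79767863), which encodes a repressor of the Hairy type, had 6 and 7 counts in MET+ cells against 8 and 2 counts in MET-KO cells. The groups overlapped, and without the filter on low counts edgeR gave an adjusted p of 0.656. ATOH1 (ENSG00000172238, chromosome 4, 93828753 to 93830964) was not counted in either MET+ library and had 2 and 3 counts in the MET-KO libraries. Both groups thus lay within the limit of 3 counts that a count of 0 allows, and no fold is given. Without the filter its edgeR adjusted p was 0.29, so a difference was not detectable at this depth.

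Other genes of the HES and HEY family also split. HES2 rose from 314 and 439 counts to 827 and 768 (41.5 ± 5.03 to 75.9 ± 7.33 CPM, SD, n = 2 each), a log2FC of 0.87 with an edgeR adjusted p of 9.39e-08. HES6, which antagonises HES1 rather than acting as a Notch target, fell from 115 ± 3.42 to 76.5 ± 5.88 CPM (SD, n = 2 each), with a log2FC of -0.59 and an edgeR adjusted p of 7.61e-06. HEY2 fell from 25 and 33 counts to 6 and 2, a log2FC of -3.03 (SE 0.57, edgeR adjusted p = 2.78e-05). Thus HES2 shared the direction of HES4, and HES6 and HEY2 that of HES1.

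HEYL had 92 and 103 counts in MET+ cells against 58 and 80 in MET-KO cells, a log2FC of -0.73 (edgeR adjusted p = 0.00807). Its call was lost without MET-KO replicate 1 (log2FC -0.56, edgeR adjusted p = 0.107) and in DESeq2's Wald test (adjusted p = 0.0969). HES7 had a log2FC of -0.50 (edgeR adjusted p = 0.165), which passed the threshold without MET+ replicate 1 (log2FC -0.77, adjusted p = 0.0302). NRARP, a feedback inhibitor that Notch induces, was level, at 40.3 ± 3.05 and 41.6 ± 2.85 CPM (SD, n = 2 each), a log2FC of 0.04 with a standard error of 0.12. HES3, HELT and DTX1 were at 0 throughout, HES5 had at most 2 counts and OLFM4, a Notch-dependent gene of crypt base cells, at most 1. Of these 11 genes, 6 were tested, and 1 was higher and 3 lower. This made 66.7% called, against 54.1% of all tested genes.

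Within a library, the share of 1 gene in its family does not depend on how libraries are scaled. HES1 made up 51.3% (95% exact Clopper-Pearson interval 49.6 to 53.0, counting error only) and 48.3% (46.8 to 49.9) of the counts of the 11 HES and HEY genes in the MET+ libraries. In the MET-KO libraries it made up 31.9% (30.3 to 33.5) and 34.7% (33.1 to 36.3). HES4 went from 8.25% and 7.17% to 16.7% and 16.0%, and HES2 from 9.03% and 10.9% to 24.2% and 22.4%. The 2 MET-KO libraries therefore had a family with less HES1 and more HES2 and HES4, and its summed level was 420 and 415 CPM in MET+ and 336 and 316 CPM in MET-KO cells. The share of HES6 moved less, from 26.7% and 28.3% to 24.0% and 22.9%.

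**Figure D3:**
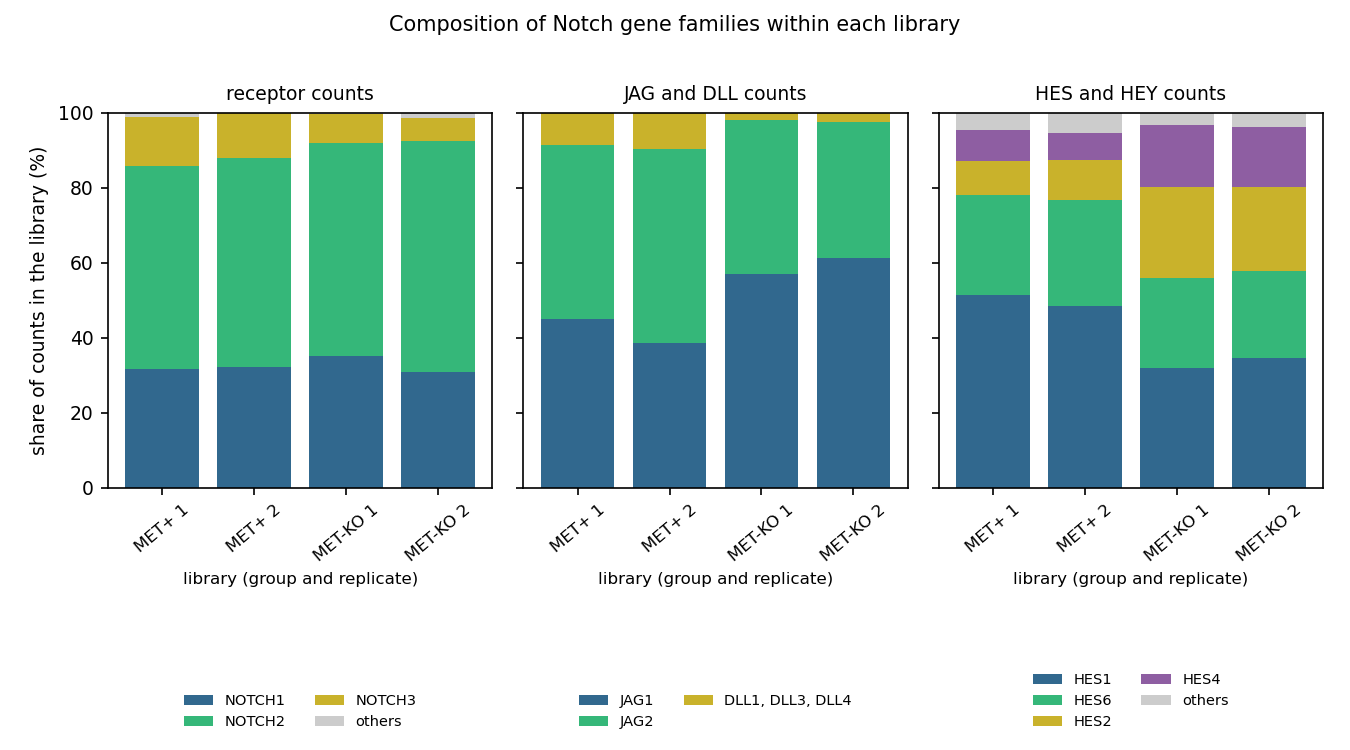
Share of each gene in the counts of its family (y axis, %) in each of the 4 libraries, for 4 receptors, 5 JAG and DLL ligands and 11 HES and HEY genes. The HES1 share lies at 48.3% or above in MET+ and at 34.7% or below in MET-KO libraries, and the JAG1 share moves the other way.

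Of the counts of the 5 JAG and DLL genes, JAG1 made up 44.8% (95% exact Clopper-Pearson interval 41.7 to 47.9) and 38.5% (35.7 to 41.4) in the MET+ libraries and 57.0% (54.3 to 59.6) and 61.3% (58.8 to 63.8) in the MET-KO libraries. JAG2 went from 46.4% and 51.8% to 41.0% and 36.0%, and DLL1, DLL3 and DLL4 together from 8.79% and 9.71% to 2.0% and 2.65%. The sum over the ligands changed little, from 121 ± 3.82 to 134 ± 2.52 CPM (SD, n = 2 each), a ratio of 1.11. Among the receptors, the share of NOTCH2 was 53.9% and 55.9% in MET+ and 56.7% and 61.6% in MET-KO cells, and that of NOTCH3 was 13.3% and 12.1% in MET+ and 7.67% and 6.16% in MET-KO cells. With 2 libraries a group, an exact two-sided permutation test on such shares and sums cannot go below p = 0.333, so they are given as values.

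Genes of the machinery that cuts and modifies the receptors were called in both directions, as were tested genes in general. In a list of 17 such genes, 16 were tested, 6 were higher and 6 lower, with a median log2FC of -0.10. The share called was 75%, against 54.1% of all tested genes (27.2% higher and 26.9% lower). ADAM10, the protease of the first cut, went up from 59.8 ± 1.20 (SD, n = 2) to 155 ± 2.19 CPM (SD, n = 2), a log2FC of 1.37 (edgeR adjusted p = 7.5e-14). APH1B and XXYLT1, a gamma-secretase subunit and a xylosyltransferase of the EGF repeats, had log2FCs of 1.82 and 1.68. APH1A, the other form of the APH1 subunit of gamma-secretase, fell by 0.46 on the log2 scale. LFNG, which adds a sugar to the receptors that favours delta-like ligands, had a log2FC of -0.90 (edgeR adjusted p = 0.00473), a call lost without MET-KO replicate 1 (edgeR adjusted p = 0.0527) and in DESeq2's Wald test (adjusted p = 0.0709). The lower count of this list went from 6 to 3 when libraries were scaled by their totals alone and to 2 in DESeq2's Wald test.

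**Figure D4:**
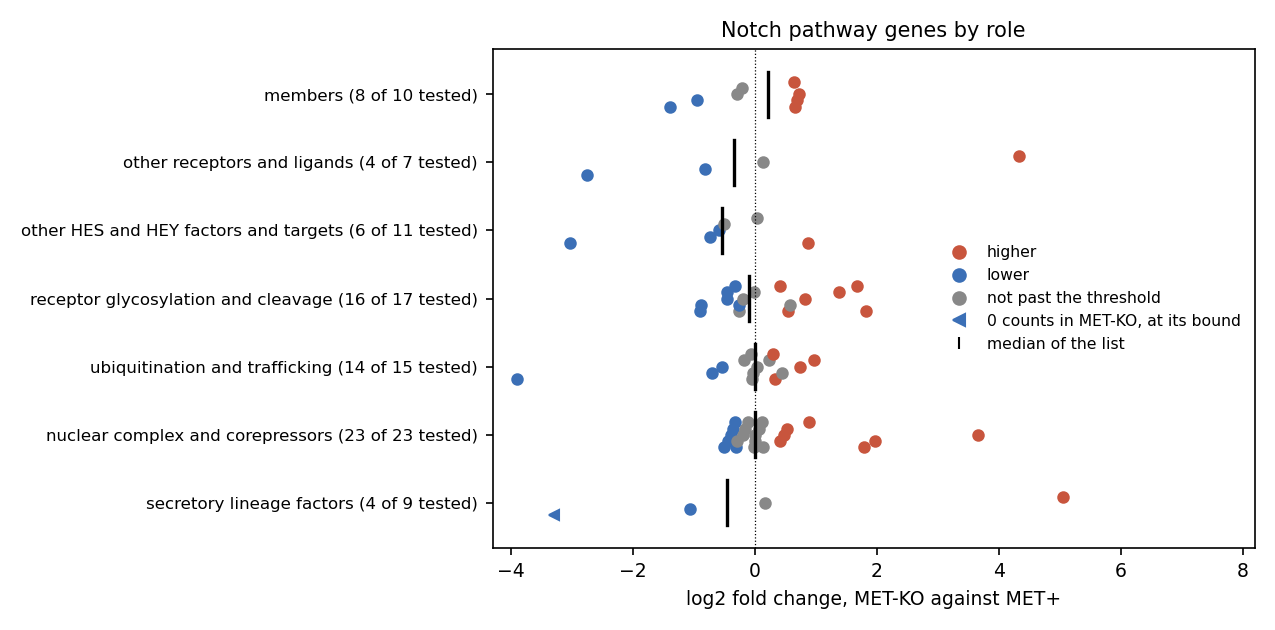
Log2FC of MET-KO against MET+ (x axis) of each tested gene, by role, coloured by call, with a black bar at the median of each list. Medians of the lists lie between -0.54 and 0.22, and each list holds genes called in both directions. Of all tested genes, 27.2% were called higher and 26.9% lower.

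Genes of the nuclear complex were also called in both directions, as were tested genes in general. RBPJ, the DNA-binding partner of all Notch receptors, named after its values had been seen, stood at 83.7 ± 0.957 and 83.9 ± 1.85 CPM (SD, n = 2 each), a log2FC of 0.00 with a standard error of 0.10. All 23 genes of the list of nuclear factors and corepressors were tested, 7 were higher and 6 lower, with a median log2FC of 0.00. The share called was 56.5%, near the 54.1% of all tested genes. TLE4, a Groucho corepressor that HES proteins recruit, went up from 6.81 ± 0.236 (SD, n = 2) to 86.0 ± 0.122 CPM (SD, n = 2), a log2FC of 3.65 (edgeR adjusted p = 3.18e-21). MAML2, a coactivator, had 19 and 8 counts in MET+ cells against 55 and 71 in MET-KO cells (log2FC 1.97), and the acetyltransferase KAT2B had a log2FC of 1.79. MAML1, NCOR1 and SNW1 were called lower, with log2FCs of -0.51, -0.44 and -0.39. MAML1 and SNW1 lie on chromosomes 5 and 14, whose tested genes had medians of -0.43 and -0.51, and neither was called when its chromosome median was taken as the null value (edgeR adjusted p = 0.632 and 0.318).

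Of 15 genes for ubiquitination and trafficking of ligands and receptors, 14 were tested, 4 were higher and 3 lower. The share called was 50%, near the 54.1% of all tested genes. NEDD4, NUMBL and FBXW7 were higher, with log2FCs of 0.98, 0.74 and 0.32. Both NUMBL and FBXW7 lost the call without MET+ replicate 1 (edgeR adjusted p = 0.0677 and 0.126), and FBXW7 also in DESeq2's Wald test (adjusted p = 0.0699). NUMB, which inhibits Notch, and DTX4 were lower, with log2FCs of -0.70 and -0.54, although NUMB, on chromosome 14, was not called against its chromosome median (edgeR adjusted p = 0.218). LNX1, a ligase for NUMB, had 12 and 17 counts in MET+ and 2 and 0 in MET-KO cells. Its log2FC was -3.91 (SE 0.84, edgeR adjusted p = 0.000181). Pooled over the libraries of a group, 29 against 2 counts gave a ratio of 16.9. Its 95% interval of 4.29 to 147 covers counting error only, not the spread between replicates.

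A list of 9 transcription factors of intestinal secretory, enteroendocrine and tuft cells had 4 tested genes, of which 1 was higher and 2 lower. This made 75% called, against 54.1% of all tested genes. GFI1, which acts after ATOH1 in goblet and Paneth cells, fell from 17.4 ± 1.53 to 8.33 ± 1.11 CPM (SD, n = 2 each), a log2FC of -1.07 (edgeR adjusted p = 2.27e-05). INSM1, an enteroendocrine factor, had 24 and 26 counts in MET+ and 0 in both MET-KO libraries, and was at least 9.76-fold lower with 3 counts per library as the limit. POU2F3, the tuft cell factor, had 1 and 5 counts in MET+ cells against 97 and 144 in MET-KO cells (log2FC 5.05, edgeR adjusted p = 1.04e-11). SOX4 had a log2FC of 0.17 (edgeR adjusted p = 0.12), and passed the threshold with scaling by library totals alone (adjusted p = 0.0137). SPDEF, NEUROG3, NEUROD1 and PAX4 had at most 4 counts in a library. Over the 6 lists of 82 genes, 67 were tested, 20 were higher and 22 lower (62.7% called), against 54.1% of all tested genes.

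Several chromosomes were shifted as a whole between the groups, so each of the 8 tested genes was also set beside its neighbours. Medians were taken for chromosomes 1 to 22 and X. On chromosome Y, KDM5D, singled out after its value had been seen, had a fitted log2FC of 9.47 (SE 0.81, edgeR adjusted p = 8.73e-12). Whether the 2 groups differ in origin beyond the MET edit was not tested. The chromosomes of NOTCH1, NOTCH2, NOTCH3, JAG1, DLL1, HES1 and HES4 had median log2FCs of 0.01 to 0.14, and chromosome 14, which carries JAG2, one of -0.51. HES4, NOTCH2, NOTCH1 and JAG1 stood at percentiles 81.5, 81.0, 78.7 and 77.9 of their chromosomes, and HES1 and DLL1 at 7.13 and 6.27. With the chromosome median as the null value, the 6 calls were unchanged in direction and JAG2 was called higher, with a log2FC of 0.31 (SE 0.11, edgeR adjusted p = 0.0189). JAG2 thus lay above its chromosome and, by 0.20 on the log2 scale, below its MET+ level, the latter short of the threshold.

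The neighbourhood differed most from the chromosome for DLL1. The 16 other tested genes within 5 Mb of DLL1, near the end of chromosome 6, had a median log2FC of -0.91 (quartiles -1.13 and -0.42), against 0.08 for the whole chromosome. With this local median as the null value, chosen after it had been seen, the log2FC of DLL1 was -0.48 (SE 0.32, edgeR adjusted p = 0.214) and the gene was no longer called. For the 53 genes around HES1 the local median was 0.15 and for the 70 around HES4 it was 0.05, and both genes kept their calls against it (edgeR adjusted p = 6.77e-12 and 1.84e-05). The 64 genes around JAG2 had a local median of -0.77, and the 24 around JAG1 one of -0.16.

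**Figure D5:**
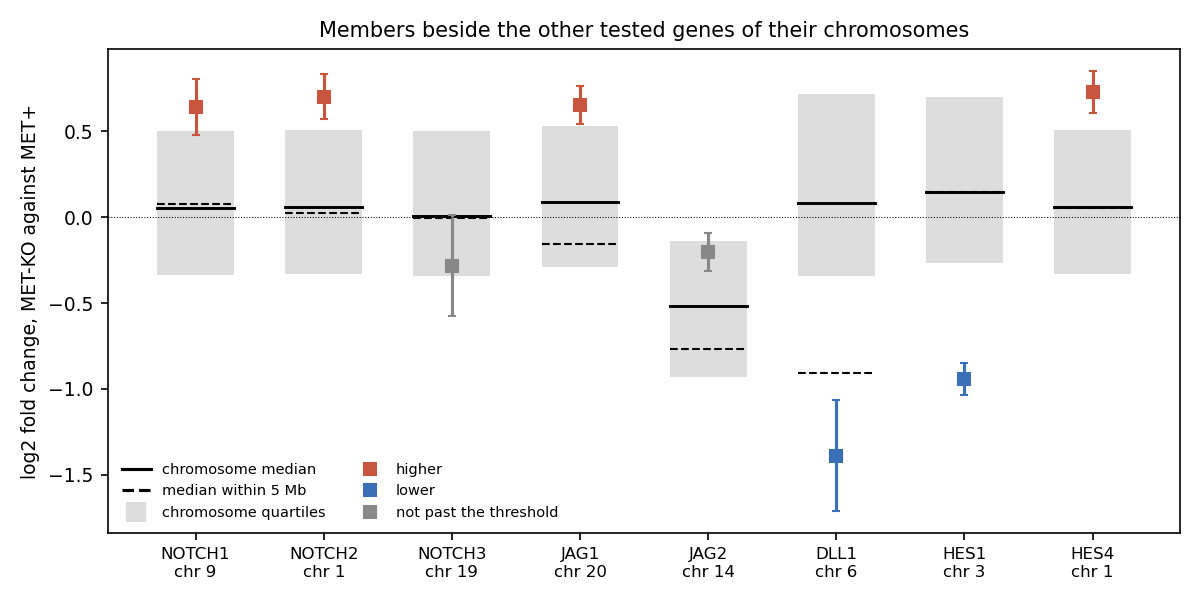
Log2FC of MET-KO against MET+ (y axis) of the 8 tested members, with the standard error, over the quartiles (grey) and median (solid line) of the tested genes of the chromosome and the median of those within 5 Mb on each side (dashed line). DLL1 and JAG2 have local medians of -0.91 and -0.77, and those of the other 6 genes lie between -0.16 and 0.15.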

How the data were processed

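Total RNA of 2 MET+ and 2 MET-KO LoVo samples was made into QuantSeq 3' mRNA libraries. The authors deposited, for each library, raw counts of reads per Ensembl gene, without normalization, and 99 spike-in rows that held 0 counts. The submitters' processing notes name cutadapt 1.16, STAR 2.5.4a, featureCounts 1.6.2, DESeq2 1.18.1 and GRCh38, and the strand setting is not given in the sources used here. Names and positions were taken from GENCODE version 29 on GRCh38, which held 58552 of the gene IDs. Differences between the groups were tested with edgeR 4.0.16 under R 4.3.3 (filterByExpr by group, TMM, quasi-likelihood test, condition as the only term, Benjamini-Hochberg adjustment, threshold 0.05), and CPM were computed with the TMM factors. Intervals use the t quantile of that test. DESeq2 1.42.0 was an alternative, beside other scalings and filters, a replicate block, chromosome medians as null values, and leaving out each library. On simulated counts for this comparison (13470 genes tested), edgeR recovered 98 of 100 genes changed 2-fold and 100 of 100 changed 4-fold and called 9 unchanged genes. Replicates differed by more than counting noise (chi-square per degree of freedom 5.45 and 4.86). Nothing states that they came from separate cultures. The p-values set the group difference against the spread between these samples, and do not cover the spread between clones. Reads without molecular identifiers leave PCR copies in the counts.

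The members and gene lists were chosen with earlier results of these data known. Named are all 10 members, MET, every gene of the lists of other receptors and ligands and of other HES and HEY factors, and of the other 4 lists up to 3 genes with the largest changes in each direction among those called. Some genes of these lists are counted but not reported here. RBPJ, SOX4, SPDEF, NEUROG3, NEUROD1, PAX4, KDM5D, the cell type markers and genes that overlap or copy a member were named outside this rule, after their values had been seen. Plots used matplotlib 3.10.9 under Python 3.11.15.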

Additional observations from a re-analysis of the deposited data

How the results depend on the processing

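The 6 calls among the members kept their direction and passed the threshold with DESeq2 size factors, library totals alone, DESeq2's Wald test, no filter on low counts, a minimum of 10 counts throughout, the replicate block, chromosome medians as null values and each library left out. Library totals alone moved the median log2 fold change of all tested genes from 0.01 to 0.11. Requiring a change of 1 or more on the log2 scale in either direction left 0 members called higher and 1 lower, 8 pathway genes higher and 5 lower, and 2001 of all tested genes higher and 1354 lower, by its own construction. JAG2 turned from -0.20 to 0.31 against its chromosome median and to 0.56 against its local median. Local medians, added after seeing the data, left 1 member called lower, since DLL1 was at -0.48. The replicate numbers of the labels did not pair the samples by the check used, since the deviations of same-numbered libraries correlated by -0.022 over tested genes and by -0.12 over the 9556 whose mean log2 CPM was 3 or higher. With the replicate block, 3544 genes were called higher and 3511 lower, and among the members 4 higher and 2 lower, and a crossed block, added after seeing the data, gave 3853 and 3884. HEY1 and ATOH1 were too low to be tested at this depth.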
